A study of Homo sapiens with 6 samples.

Results

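The kinesin family, the motor proteins that walk along or shorten microtubules, was examined in ARPE-19 cells after an oxidised-lipid aldehyde. Members were taken by name from the gene table: every symbol that begins with KIF or KIFC followed by a number, with rows of the same symbol summed. That gave 42 of 19514 gene symbols. The 12 members counted here as mitotic (KIF2C, KIF4A, KIF11, KIF14, KIF15, KIF18A, KIF18B, KIF20A, KIF20B, KIF22, KIF23 and KIFC1) were set against the other 30. The 12 are not every kinesin with a mitotic role. Annotation in the gene table also names mitotic processes or cell division for KIF2A, KIF2B, KIF3B, KIF4B, KIF13A, KIF25 and KIFC2, but not for KIF14 and KIF20B. Of these others, KIF2A and KIF3B were higher after tt-DDE, KIF13A and KIFC2 were lower, and the rest were not tested. The rule goes by name, and it was set with earlier results of these data known.

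ARPE-19 is an immortal human line from retinal pigment epithelium, labelled wild type. The 2 groups were cells given 40 µM tt-DDE (decadienal in its trans,trans form, a reactive aldehyde that arises when linoleic acid is oxidised) and cells given DMSO, its solvent, both for 24 h. Each group held 3 libraries of polyadenylated RNA, with 14156421 to 16061373 counted reads in DMSO and 15548067 to 17130543 after tt-DDE. The labels do not say whether libraries of a group came from separate cultures. The p-values therefore set the group difference against the spread between these libraries, which may be technical. All libraries came from 1 cell line. Of 12 fixed markers of pigment epithelium, KRT8, KRT18, EZR, OTX2 and MITF were well above the counting floor, RPE65 had 0 counts in every library, and TYR and TTR had at most 3 counts per group. BEST1 went from 24 counts in DMSO to 1021 after tt-DDE. Of the 9 markers tested 5 were lower and 2 higher after tt-DDE, where 41.6% and 41.7% of all symbols tested were, and the list summed to 1974 to 2022 CPM (counts scaled to a common library total, adjusted for composition) in DMSO and to 827 to 856 CPM after tt-DDE, a fall carried by KRT8, KRT18 and EZR.

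A kinesin has a motor domain that burns ATP to move on microtubules and a tail that binds cargo or a partner. Transport kinesins carry vesicles, endosomes, lysosomes, mitochondria and ciliary trains, mostly toward the microtubule plus end at the cell periphery. Mitotic kinesins build the bipolar spindle, move and align chromosomes, trim microtubule ends and organise the midzone where the cell divides. Transcripts of the mitotic members are typically made in G2 and M phase, whereas transport members are also used by cells that do not divide.

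All 12 mitotic kinesins were lower after tt-DDE, and the other members moved both ways. The mitotic members fell by a median log2 fold change of -3.61, from -2.53 for KIF18A to -5.23 for KIF20A, against a median of 0.00 over the 12531 symbols tested. Every one of the 12 fell at least 4-fold, where 4.54% of symbols tested did, and 11 fell at least 8-fold, where 1.27% did. Of the 22 other members that passed the low-count filter, 12 were higher and 7 lower, and 3 were not past the threshold; their median was 0.22. The background for these counts is that 41.7% of symbols tested were called higher and 41.6% lower (edgeR's quasi-likelihood test, Benjamini-Hochberg adjusted p of 0.05). The 10 fixed markers of dividing cells were also all lower (TOP2A by -6.01, CDK1 by -5.54 and MKI67 by -4.74 on the log2 scale), with a summed level of 2603 to 2632 CPM in DMSO and 149 to 162 CPM after tt-DDE. The part of that change in the kinesin values was not tested, and fewer dividing cells cannot be told apart here from less kinesin RNA per cell.

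**Figure D1:**
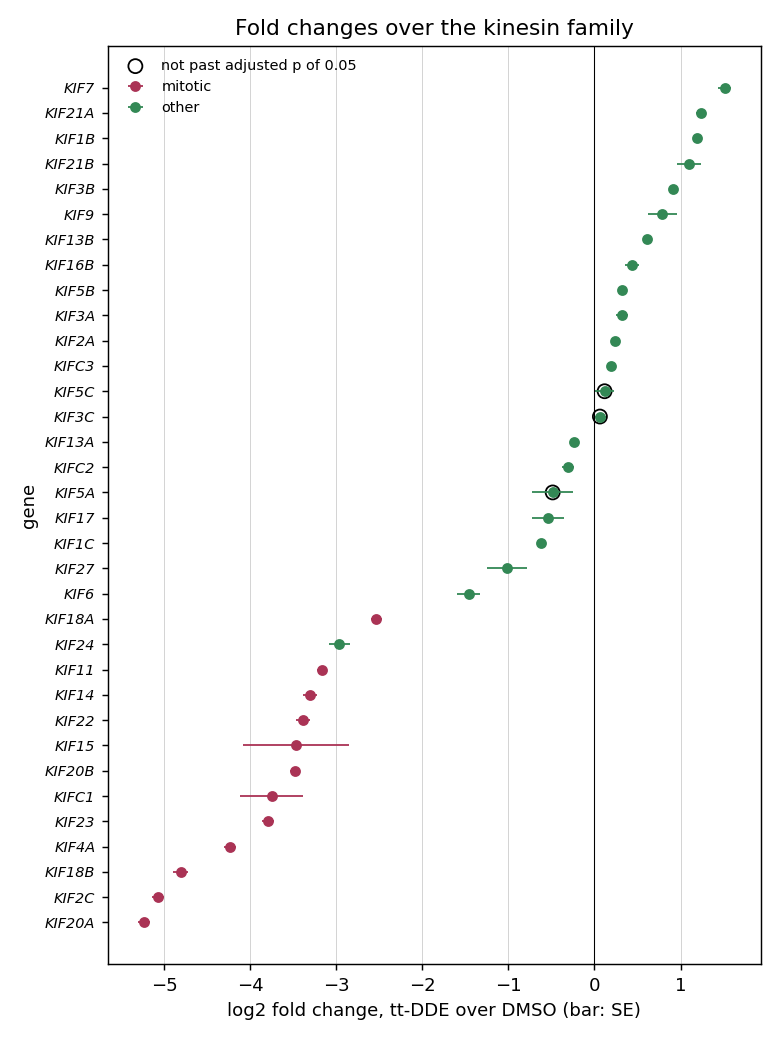
Log2 fold change of tt-DDE over DMSO (x axis) for the 34 kinesins that passed the low-count filter (y axis), with standard errors as bars and open circles around members that did not pass the test. The 12 mitotic members lie at or below -2.53, and KIF24 at -2.96 is the only other member in that range.

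The 3 kinesins that keep the spindle bipolar fell by a median log2 fold change of -3.47. KIF11, which slides antiparallel microtubules apart and pushes the spindle poles from each other, was at 193, 188 and 188 CPM in the DMSO libraries and at 20.8, 21.1 and 21.5 CPM after tt-DDE. The libraries of each group lay close together and the groups were far apart, with a log2 fold change of -3.17 (SE 0.054, adjusted p = 4.95e-41). KIFC1, a minus-end motor that gathers microtubules at spindle poles, had 52, 49 and 65 counts in DMSO and 3, 7 and 2 after tt-DDE. KIF15, which helps KIF11 keep the spindle bipolar, had 15, 18 and 15 counts in DMSO and 3, 0 and 1 after tt-DDE. Ratios of the summed counts put KIFC1 14.7-fold lower (95% counting interval 8.21 to 29.1) and KIF15 12.8-fold lower (95% counting interval 4.68 to 48.8). The fitted log2 fold change of KIF15, -3.47 (SE 0.62), was -4.65 without tt-DDE library 1, and that of KIFC1, -3.75 (SE 0.36), was -4.40 without tt-DDE library 2.

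The low levels of KIFC1 and KIF15 are uncertain. Both symbols have further rows on alternate scaffolds, 3 rows for KIFC1 and 2 for KIF15, and the primary row of KIFC1 held 28.1% of its counts. The other 10 mitotic members have 1 row each and had 3720 to 9573 counts in DMSO. Across the table, symbols with several rows that were tested had a median of 2.99 CPM and those with 1 row a median of 33.9 CPM. How reads matching several rows were counted is not stated in the labels, and its part in these levels was not tested.

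Members that act at microtubule ends had a median log2 fold change of -4.80 and spread widely. KIF2C, which takes microtubules apart at centromeres so that wrong attachments are released, was at 183, 183 and 189 CPM in DMSO and at 5.59, 5.42 and 5.52 CPM after tt-DDE, a log2 fold change of -5.07 (SE 0.069). KIF18B, which shortens astral microtubules, went from 89.4, 91.2 and 87.9 CPM to 2.95, 3.02 and 3.66 CPM, a log2 fold change of -4.80 (SE 0.089). Both genes fell to about the level of a few CPM in every treated library. KIF18A, which damps the movement of chromosomes at kinetochore fibres, fell least of the 12, from 100, 106 and 103 CPM to 18.5, 17.8 and 17.2 CPM (log2 fold change -2.53, SE 0.062). KIF18A shares 61 exonic bases with METTL15 on the other strand, a gene at 36.6 CPM in DMSO and 33.5 CPM after tt-DDE, and reads of such a pair cannot be told apart without strand.

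Both chromokinesins, which bind chromosome arms, were lower. KIF4A, which also limits midzone length together with PRC1, was at 126, 124 and 118 CPM in DMSO and at 7.03, 5.99 and 6.51 CPM after tt-DDE (log2 fold change -4.23, SE 0.074). KIF22, which pushes chromosome arms toward the spindle equator, was at 75.2, 78.0 and 80.8 CPM and then at 6.97, 6.30 and 9.24 CPM (log2 fold change -3.38, SE 0.085). KIF4B, an intronless copy of KIF4A, had 20 counts in DMSO and 3 after tt-DDE, too few to be tested, and reads of the 2 copies may have been divided between them.

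The 4 members of cytokinesis had log2 fold changes from -5.23 to -3.30. KIF20A, which brings the chromosomal passenger complex to the midzone, had 207, 200 and 197 CPM in DMSO and 6.07, 5.29 and 4.59 CPM after tt-DDE. Its log2 fold change of -5.23 (SE 0.071, adjusted p = 6.92e-45) was the 6th lowest of all symbols tested. KIF23, the motor of centralspindlin, went from 165, 181 and 170 CPM to 13.2, 10.3 and 13.9 CPM (log2 fold change -3.79, SE 0.068). KIF20B, a relative of both that helps to complete cytokinesis, was at 181, 192 and 184 CPM and then at 18.3, 16.7 and 14.8 CPM (log2 fold change -3.48, SE 0.060). KIF14, which holds citron kinase at the midbody, was at 83.7, 94.8 and 92.1 CPM and then at 8.78, 11.2 and 7.44 CPM (log2 fold change -3.30, SE 0.083). In each of these genes the lowest DMSO library stood well above the highest treated one, as it did in all 12 mitotic members, where 41.9% of symbols tested had all treated libraries below all DMSO libraries. KIF20A shares 68 exonic bases with CDC23 on the other strand, a gene at 43.9 CPM in DMSO and 43.5 CPM after tt-DDE. KIF23 shares 231 exonic bases with AC027237.3, KIF22 177 with AC009133.4 and KIF2C 137 with AL592166.1, also on the other strand. Those genes are not in the gene table, so their levels are not known.

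**Figure D2:**
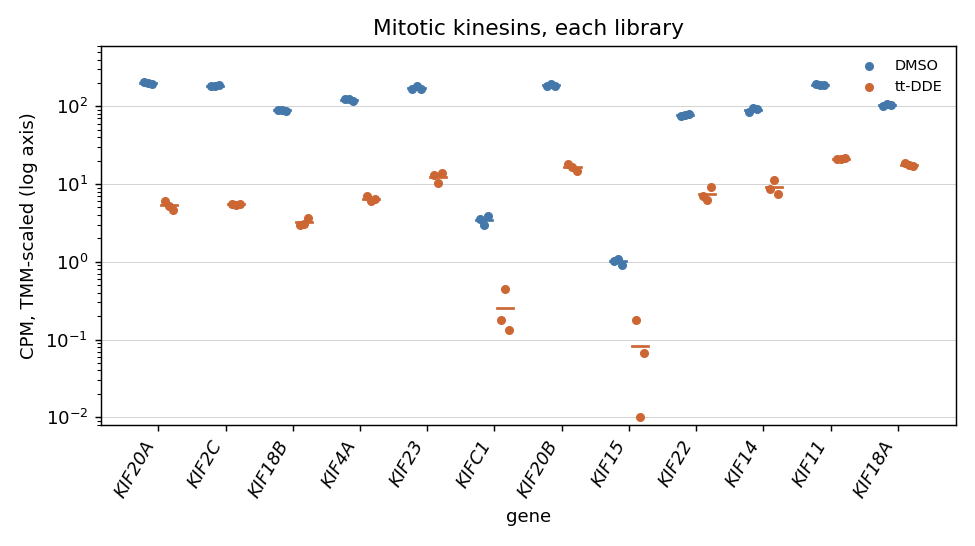
CPM (log axis) of the 12 mitotic kinesins in each library, DMSO in blue and tt-DDE in orange, with group means as lines and 0 counts drawn at 0.01. No treated library reaches a DMSO library of the same gene, and KIFC1 and KIF15 lie far below the other 10.

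The stretch of DNA just before the start of a gene was compared between members, because genes switched on in G2 and M phase often carry a cell cycle homology region, with the core TTTGAA, downstream of CCAAT boxes bound by NF-Y. Promoter windows of 300 bases, 250 before and 50 after the annotated start, came from RefSeq (GRCh38.p14) and existed for 34 members, all 12 mitotic ones among them. These are not the 34 members tested. Among the 22 others with a window, KIF12, KIF1A, KIF25, KIF26A, KIF2B and KIF4B were not tested. KIF13B, KIF21B, KIF27, KIF5A, KIFC2 and KIFC3 were tested but had no window. The 2 others with TTTGAA were KIF4B and KIF5B. TTTGAA, read on both strands, was in 9 of the 12 mitotic promoters (75%), in 2 of 22 others (9.09%) and in 13.9% of 10216 tested symbols with a window. CCAAT was in 10 of the 12 (83.3%), in 8 of the 22 (36.4%) and in 43.1% of tested symbols, and both motifs were in 8 of the 12 (66.7%), in 2 of the 22 (9.09%) and in 5.79% of tested symbols. Among the 473 symbols with a window that fell at least 4-fold, TTTGAA was in 27.9%, CCAAT in 54.8% and both in 17.3%. Over all 35116 windows in the table TTTGAA was in 15.2%, CCAAT in 34.6% and both in 5.90%. Of the E2F cores, TTCCCGC was in 0 of the 12 mitotic promoters, in 13.6% of the 22 others and in 12.8% of tested symbols. TTGGCGC was in 3 of the 12 (25%), in 9.09% of the 22 and in 6.07% of tested symbols. A match is a run of letters, not a shown binding site. Members share this feature by description only, and no test was made on it.

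The promoters below are those of 3 mitotic genes that fell and of 2 transport genes that rose. KIF20A and KIF23 were also chosen but are not printed. More than 30 of their 130 bases lie in an exon or in the deposited span of the gene. KIF1B has further RefSeq starts that are not printed, whose windows hold 0 and 1 CCAAT matches. Both KIF18B and KIF5B have a TTTGAA in the window that lies outside the printed bases, so the lines alone do not contrast the groups. Each line gives the last 130 bases before the RefSeq start, 5′ to 3′ on the gene's own strand, and capitals mark the CCAAT box or the core of the cell cycle homology region on either strand. Read from the opposite strand the box is spelled ATTGG and the core, in the promoter of KIF11, TTCAAA. The windows are chr10:92593000-92593129 (plus strand) for KIF11, chrX:70289974-70290103 (plus) for KIF4A, chr17:44947774-44947903 (minus) for KIF18B, chr10:32056426-32056555 (minus) for KIF5B and chr1:10210440-10210569 (plus) for KIF1B.
KIF11: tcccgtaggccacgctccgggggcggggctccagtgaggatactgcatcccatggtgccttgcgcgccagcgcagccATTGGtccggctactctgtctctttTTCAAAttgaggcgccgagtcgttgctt
KIF4A: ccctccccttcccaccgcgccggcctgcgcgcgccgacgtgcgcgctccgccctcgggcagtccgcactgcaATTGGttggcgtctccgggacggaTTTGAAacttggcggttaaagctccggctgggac
KIF18B: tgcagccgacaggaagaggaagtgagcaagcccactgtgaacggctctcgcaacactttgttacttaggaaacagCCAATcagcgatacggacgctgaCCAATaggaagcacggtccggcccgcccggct
KIF5B: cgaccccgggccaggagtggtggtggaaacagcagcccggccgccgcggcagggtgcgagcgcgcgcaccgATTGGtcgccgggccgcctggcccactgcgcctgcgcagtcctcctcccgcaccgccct
KIF1B: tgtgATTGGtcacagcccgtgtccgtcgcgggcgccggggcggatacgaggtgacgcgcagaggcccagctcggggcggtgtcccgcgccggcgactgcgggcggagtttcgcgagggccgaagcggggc

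In all 8 mitotic promoters with both motifs CCAAT came first. Measured from first base to first base, TTTGAA began 25 bases after the nearest CCAAT before it in KIF11, 24 in KIF4A, 23 in KIF14, 35 in KIF18A and 34 in KIF18B, whose TTTGAA lies just after the start and is not printed. The distance was 9 bases in KIF23, 50 in KIFC1 and 122 in KIF20B. Outside the mitotic 12, KIF4B, the untested copy of KIF4A, also had CCAAT first, with TTTGAA 24 bases after it. KIF5B, which rose slightly, has both motifs in the reverse order, with TTTGAA at position -140, counted from -1 at the last base before the start, and CCAAT at -59. The 2 members that fell most did not carry TTTGAA in this window: KIF20A had 2 CCAAT matches and KIF2C none of the motifs searched. KIF24, which fell most outside the mitotic 12, had 3 CCAAT matches and no TTTGAA.

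Cargo transport kinesins lay between -0.62 (KIF1C) and 1.19 (KIF1B) on the log2 scale, with 6 higher, 3 lower and 3 not past among 12 tested (over all symbols tested, 41.7% were higher and 41.6% lower). KIF5B, the heavy chain of conventional kinesin found in most tissues, had 288, 289 and 288 CPM in DMSO and 372, 374 and 336 CPM after tt-DDE. Groups did not overlap, and its log2 fold change was 0.32 (SE 0.039, adjusted p = 3.00e-10). The relatives best known from neurons were far lower: KIF5C was at 11.1 ± 0.387 and then 12.1 ± 0.253 CPM (SD, n = 3), and KIF5A at 3.71, 3.17 and 2.46 CPM and then at 1.68, 2.96 and 1.99 CPM. Neither passed the test, although the groups of KIF5C stood just apart. The log2 fold change of KIF5A was -0.49, and it passed without DMSO library 3 (-0.64), without tt-DDE library 2 (-0.75) and with library size alone as scaling (-0.58), and with no low-count filter (-0.51). It was -0.31 without tt-DDE library 1.

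Kinesin-2 motors, which drive trains into cilia and carry other cargo, rose in 2 of 4 tested, where 41.7% of symbols tested were called higher. KIF3B, the partner of KIF3A in the heterotrimer, rose from 84.9, 80.7 and 80.9 CPM to 153, 159 and 152 CPM (log2 fold change 0.91, SE 0.045). KIF3A went from 28.6, 28.99 and 29.6 CPM to 38.5, 34.7 and 35.6 CPM (log2 fold change 0.32, SE 0.070). For both subunits every treated library stood above every DMSO library. KIF3C, another partner of KIF3A, had overlapping groups, 39.8 ± 1.89 in DMSO against 41.6 ± 2.93 CPM (SD, n = 3), and was not called (log2 fold change 0.06, and -0.03 with library size alone). KIF17, a homodimer of cilia and dendrites, was at 4.60, 5.98 and 6.37 CPM in DMSO and at 2.46, 4.54 and 4.79 CPM after tt-DDE. Its groups overlapped, and the call (log2 fold change -0.54, adjusted p = 0.00906) was lost without tt-DDE library 1 (log2 fold change -0.28, adjusted p = 0.163) and without DMSO library 3 (-0.45, adjusted p = 0.0526). With DESeq2's Wald test it was -0.53 (adjusted p = 0.0559).

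Kinesin-3 motors, fast long-range carriers, went both ways. KIF1B, which carries lysosomes, mitochondria and synaptic vesicle precursors, rose from 119, 128 and 120 CPM to 278, 285 and 271 CPM (log2 fold change 1.19, SE 0.041). KIF1C, which moves vesicles to the cell periphery, fell from 338, 331 and 337 CPM to 217, 213 and 223 CPM (log2 fold change -0.62, SE 0.037). These relatives thus changed in opposite directions, with all libraries of the groups apart. KIF13A, a carrier of endosomes and melanosome cargo, fell from 182 ± 3.36 to 155 ± 1.73 CPM, and KIF13B rose from 49.0 ± 0.649 to 75.1 ± 1.97 CPM (SD, n = 3 each). KIF16B, which moves early endosomes, rose from 19.3 ± 1.18 to 26.1 ± 1.86 CPM (SD, n = 3). KIF1A, the neuronal relative, was too low to be tested, with 0, 0 and 1 counts in DMSO and 5, 3 and 9 after tt-DDE. The ratio of its summed counts was 15.96 (95% counting interval 2.50 to 667). Fixed neuronal markers were low too, with NEFL, NEFM, ELAVL4 and DCX at 0 counts in every library and a summed level of 9.13 to 12.4 CPM in DMSO and 4.22 to 5.29 CPM after tt-DDE over all 10. Most of that sum was SYT1, at 10.3 CPM in DMSO and 3.59 CPM after tt-DDE. Other markers of the list went both ways. RBFOX3 had 0 counts in DMSO and 36 after tt-DDE, and ELAVL3 had 1 and 10. SNAP25 had 10 and 2 and SYP had 16 and 9, with overlapping groups in both. The part of other cell types in these values was not tested.

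Relatives of kinesin-4 that regulate microtubule growth or cilia gave 3 of the 4 largest rises of the family. KIF7, which organises the tip of the primary cilium in Hedgehog signalling, rose from 20.9, 19.9 and 16.7 CPM to 54.8, 52.7 and 55.8 CPM (log2 fold change 1.51, SE 0.073). KIF21A, which stops microtubule growth at the cell cortex, rose from 41.3, 38.3 and 38.5 CPM up to 98.8, 91.8 and 88.0 CPM (log2 fold change 1.24, SE 0.057). KIF21B, better known from neurons and lymphocytes, rose from 7.14, 7.44 and 4.38 CPM to 12.9, 13.8 and 13.9 CPM (log2 fold change 1.10, SE 0.14). With KIF1B these were the 4 members called at least 2-fold higher, where 16.1% of symbols tested were. KIF27, the closest relative of KIF7, fell instead, from 3.91, 4.64 and 3.12 CPM to 1.68, 1.70 and 2.39 CPM (log2 fold change -1.02, SE 0.23). KIF7 shares 47 exonic bases with TICRR on the other strand, which was at 36.7 CPM in DMSO and 11.2 CPM after tt-DDE, a move opposite to that of KIF7.

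Of the other kinesins 3 were called at least 2-fold lower, KIF24, KIF6 and KIF27, where 16.8% of symbols tested were. KIF24 stood with the mitotic group in size although it is not counted in it. This relative of KIF2C sits at centrioles, where it holds back the growth of a cilium in cycling cells. It was at 28.98, 27.2 and 28.6 CPM in DMSO and at 3.31, 3.28 and 4.32 CPM after tt-DDE, a log2 fold change of -2.96 (SE 0.12, adjusted p = 2.12e-26). Its log2 fold change lay below that of the mitotic KIF18A, a difference that was not tested. It shares 143 exonic bases with UBAP1 on the other strand, which went from 70.5 to 112 CPM, a move opposite to that of KIF24. KIF2A, the third tested member of this subfamily, moved the other way and by little, from 94.4, 94.6 and 93.6 CPM to 115, 114 and 105 CPM (log2 fold change 0.24, SE 0.047). The log2 fold change of KIF2A was 0.15 with library size alone as scaling.

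Kinesin-9 members, motors of motile cilia and flagella, were low and moved apart. KIF6 fell from 11.95, 15.0 and 15.0 CPM to 4.75, 4.79 and 5.78 CPM (log2 fold change -1.46, SE 0.13). KIF9 rose from 3.85, 3.84 and 3.60 CPM to 7.15, 6.93 and 5.38 CPM (log2 fold change 0.79, SE 0.17). KIF9 shares 149 exonic bases with KLHL18 on the other strand, which rose from 38.6 to 70.5 CPM, and 569 with KIF9-AS1, so its rise cannot be told apart from reads of those genes without strand. Of the minus-end kinesin-14 motors, KIFC3 was at 129, 127 and 120 CPM and then at 137, 147 and 144 CPM (log2 fold change 0.19), a call lost on deposited FPKM (0.09, adjusted p = 0.0884 by limma on log2(FPKM + 0.1)). KIFC2 fell from 41.3 ± 2.22 to 33.3 ± 2.04 CPM (SD, n = 3), and 21.7% of its exonic bases overlap FOXH1 on the other strand, a gene at 0.243 and 0.226 CPM.

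**Figure D3:**
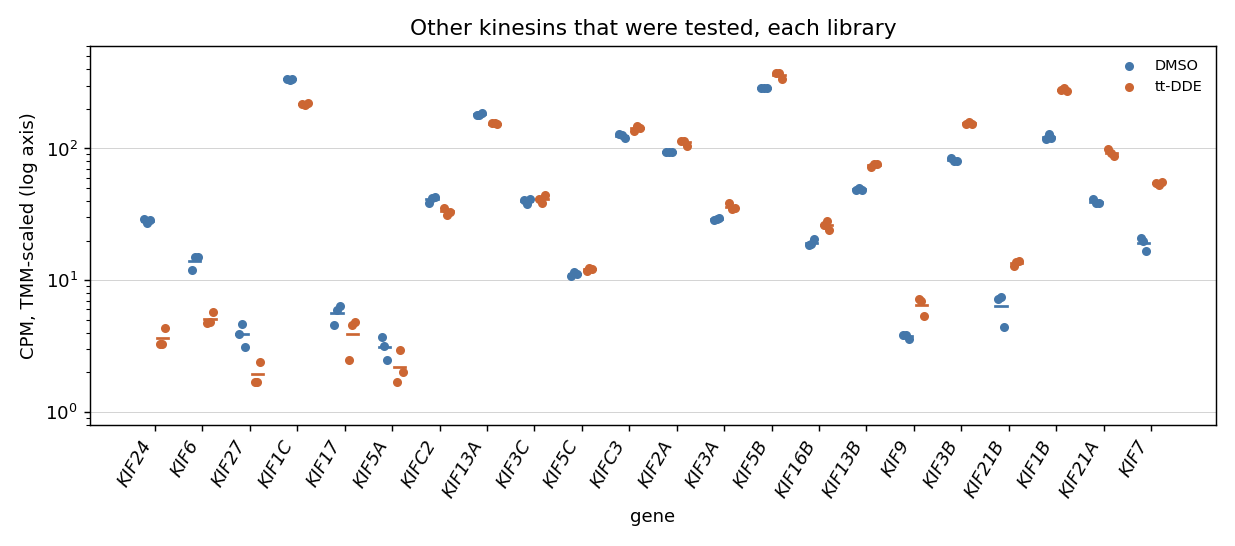
CPM (log axis) of the 22 other kinesins that were tested, in each library, DMSO in blue and tt-DDE in orange, with group means as lines and genes ordered by log2 fold change. Groups overlap for KIF17, KIF5A and KIF3C, and the largest moves are the fall of KIF24 and the rise of KIF7.

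Groups did not overlap in 31 of the 34 tested members, 18 lower and 13 higher after tt-DDE, where 83.9% of symbols tested did not. The 8 members that were not tested had at most 20 counts per group. KIF12, KIF25 and KIF2B had 0 counts in all 6 libraries, and KIF19 had 1. KIF26A and KIF26B, whose motor domains are thought to lack activity, had 9 and 1 counts in DMSO and 7 and 8 after tt-DDE. The counting floor of 3 counts was 0.175 to 0.212 CPM in these libraries. Ratios of summed counts had 95% counting intervals of 0.231 to 2.20 for KIF26A and 1.01 to 333 for KIF26B (tt-DDE over DMSO), and of 2.11 to 37.3 for KIF4B (DMSO over tt-DDE). These cover counting error only, and groups overlapped in all 3.

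Levels of different genes were compared per length, on the FPKM scale of the deposited table (reads divided by gene length and by library total). In DMSO the order ran from KIF20A at 67.1 ± 1.49 FPKM through KIF2C at 54.6 ± 1.18, KIF5B at 49.1 ± 0.250, KIF23 at 44.8 ± 2.16 and KIF1C at 43.5 ± 0.551 to KIF11 at 39.0 ± 0.491 FPKM (SD, n = 3 each). Of these neighbours, KIF23 and KIF1C overlapped between libraries and the others did not. Mitotic members held 8 of the 10 highest places in DMSO and 0 of 10 after tt-DDE. After tt-DDE the order began with KIF5B at 57.5 ± 3.44 FPKM, KIF1C at 26.5 ± 0.626, KIF3B at 23.8 ± 0.526 and KIFC3 at 16.9 ± 0.601 FPKM (SD, n = 3 each). KIFC3, KIF13A and KIF1B, in places 4 to 6, overlapped. The highest mitotic member after tt-DDE was KIF18A, in place 14, at 4.14 ± 0.152 FPKM, and it overlapped with KIF11 at 4.08 ± 0.0590 FPKM.

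Summed over the family, FPKM fell from 557, 564 and 562 in the DMSO libraries to 258, 255 and 249 after tt-DDE. The mitotic members gave 347, 355 and 351 of it in DMSO and 23.6, 22.0 and 23.1 after tt-DDE, and the other 30 gave 209.9, 209.7 and 211 in DMSO and 234, 233 and 226 after tt-DDE. The mitotic share of summed kinesin FPKM was thus 62.3%, 62.8% and 62.5% in DMSO, and 9.15%, 8.62% and 9.28% after tt-DDE. The share of KIF5B alone rose from 8.75% ± 0.0339 to 22.6% ± 1.01 of the family's FPKM (SD, n = 3). Its own FPKM went from 49.1 ± 0.250 to 57.5 ± 3.44 (SD, n = 3), while the family sum fell. No test was run on these sums, which rest on chosen members.

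**Figure D4:**
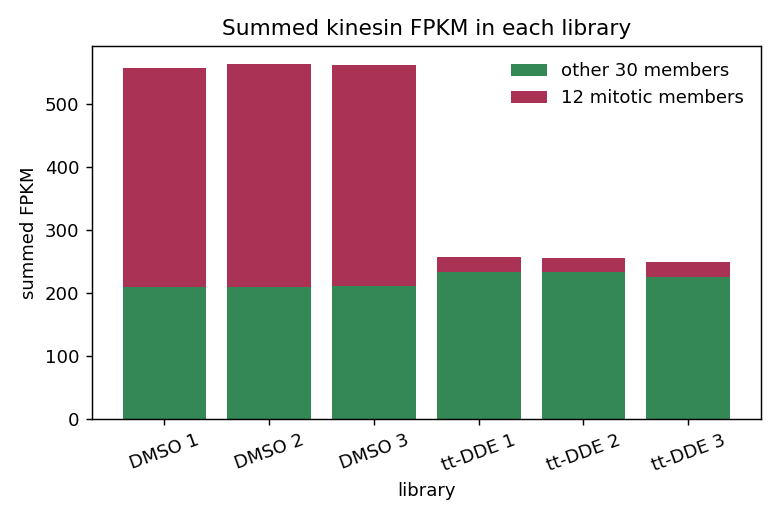
Summed FPKM of the kinesin family (y axis) in each library (x axis), stacked as the 30 other members in green and the 12 mitotic members in red. The red part shrinks from at least 347 FPKM in DMSO to at most 23.6 FPKM after tt-DDE, and the green part stays between 209.7 and 234 FPKM.

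Balance between close relatives was followed as the log2 ratio of FPKM within a library, for 9 pairs of the same subfamily. KIF2A over KIF2C went from -2.51 ± 0.033 in DMSO to 2.80 ± 0.075 after tt-DDE (SD, n = 3), so the order of both genes turned. KIF20A over KIF20B went from 1.17 ± 0.070 to -0.59 ± 0.050, a turn in order within 2 mitotic motors. KIF18A over KIF18B rose from 0.48 ± 0.037 to 2.76 ± 0.22, and KIF1B over KIF1C from -2.52 ± 0.074 to -0.71 ± 0.068 (SD, n = 3). KIF13A over KIF13B fell from 1.87 ± 0.039 to 1.02 ± 0.052, and KIF3A over KIF3B from -1.70 ± 0.062 to -2.30 ± 0.10 (SD, n = 3). KIF5B over KIF5C moved little, from 5.10 ± 0.047 to 5.30 ± 0.092, and KIFC2 over KIFC3 from -0.57 ± 0.13 to -1.06 ± 0.14 (SD, n = 3). Groups did not overlap in 8 of the 9 pairs, the exception being KIF21A over KIF21B at 3.34 ± 0.41 and 3.44 ± 0.14 (SD, n = 3). Among single symbols tested, 83.9% had groups that did not overlap. Ratios of other pairs of genes were not examined, so the count of pairs is description only. With 3 libraries against 3 the two-sided exact permutation test cannot go below p = 0.10, which each of the 8 reached (adjusted p = 0.1125 over 9 pairs).

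**Figure D5:**
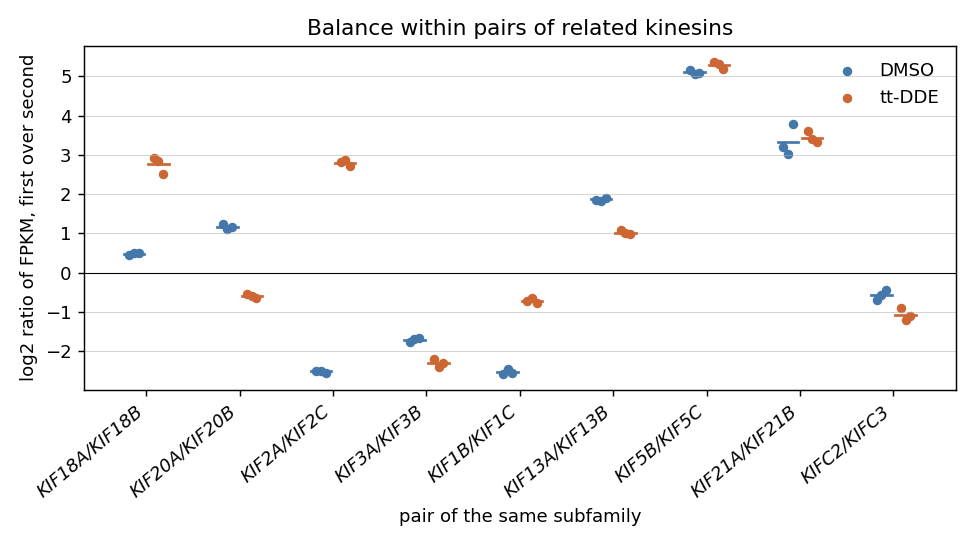
Log2 ratio of FPKM within a library (y axis) for 9 pairs of related kinesins (x axis), DMSO in blue and tt-DDE in orange, with group means as lines. The ratio crosses 0, where both genes have equal FPKM, for KIF20A/KIF20B and KIF2A/KIF2C.

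Kinesins whose symbols do not begin with KIF were read beside the family. CENPE, the kinetochore motor that carries chromosomes to the equator, was at 162, 174 and 173 CPM in DMSO and at 20.1, 23.3 and 17.7 CPM after tt-DDE, a log2 fold change of -3.06 (SE 0.062) within the range of the mitotic 12. STARD9, a centrosomal kinesin-3, fell less, from 18.5 ± 0.249 to 12.1 ± 0.759 CPM (SD, n = 3). Its log2 fold change was -0.62.

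Of the partners of the mitotic kinesins on a fixed list, 23 of 24 tested were lower, where 41.6% of symbols tested were, and 1 was higher, with a median log2 fold change of -3.11. PLK1, the mitotic kinase, fell from 185 ± 6.41 to 7.24 ± 0.578 CPM, and HMMR, which helps focus spindle poles, from 152 ± 4.42 to 7.52 ± 1.21 CPM (SD, n = 3). CIT, the citron kinase that KIF14 holds, fell from 170 ± 6.88 to 8.65 ± 0.637 CPM (SD, n = 3). The exception was MAPRE1, the plus-end protein EB1 that is used throughout the cell cycle, which rose from 202 ± 2.88 to 328 ± 10.7 CPM (SD, n = 3).

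Of 21 tested light chains and cargo adaptors of transport kinesins, 14 were higher and 6 lower, where 41.7% and 41.6% of symbols tested were, and 1 was not past. Their median was 0.46, and no test set the list against other genes. MAPK8IP1, the JIP1 scaffold that links cargo to KIF5 motors, rose from 31.6, 34.0 and 37.8 CPM to 107, 109 and 101 CPM (log2 fold change 1.61). SPAG9, the JIP4 scaffold, rose from 151 ± 6.78 to 367 ± 9.82 CPM (SD, n = 3). KIFBP, which binds kinesin motor domains and blocks them, fell from 115 ± 3.59 to 63.1 ± 5.00 CPM (SD, n = 3).

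The other motor systems had counts to be read against the same background, 41.6% lower and 41.7% higher. Dynein and dynactin, which move cargo toward the minus end, had 13 lower, 11 higher and 3 not past of 27 tested, at a median of -0.04. SPDL1, the adaptor that brings dynein to kinetochores, fell from 160 ± 3.77 to 24.5 ± 2.25 CPM, while NDEL1, a dynein regulator, rose from 34.9 ± 1.46 to 109 ± 2.54 CPM (SD, n = 3). DYNC1I1, a dynein intermediate chain, rose from 1.51, 1.46 and 1.02 CPM to 10.4, 9.20 and 10.4 CPM. Intraflagellar transport genes, whose trains kinesin-2 moves, had 9 lower, 7 higher and 8 not past of 24, at a median of -0.07. Examples are HSPB11 (log2 fold change -1.12), IFT27 (1.09) and IFT20 (1.07). Unconventional myosins, the actin motors, had 9 lower, 7 higher and 2 not past of 18, at a median of -0.18. Among myosins with a mean of at least 5 CPM, MYO7A rose (log2 fold change 1.65), and MYO5C and MYO1C fell (-1.40 and -0.87). Over all tested myosins the log2 fold change ran from -2.23 to 2.59, with the extremes in members of lower level.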

How the data were processed

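Polyadenylated RNA of 6 ARPE-19 libraries, 3 per group, was sequenced. Groups and replicate numbers came from sample titles, and columns from library names in the labels. The authors deposited 1 table of 22312 gene rows with whole-number read counts, per the file headers. The submitters' processing notes name the build GRCh38.p13. The sources used here do not give the aligner, counter, annotation release or use of strand. The deposited FPKM equalled count over length and column total for all 91254 values above 0 (relative tolerance 1e-06), so it carries no composition factor.

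Rows sharing a symbol were summed over the whole table (47 kinesin rows gave 42 symbols). The test on counts was edgeR's quasi-likelihood test (version 4.0.16, R 4.3.3; filterByExpr, TMM, glmQLFit and glmQLFTest), two-sided, with group alone in the model. Adjustment (Benjamini-Hochberg) ran over 12531 symbols at 0.05. Standard errors were derived from this test, each as the absolute log2 fold change over the square root of the F statistic. The script was tested on simulated data. Within groups, libraries differed beyond counting noise (chi-square over degrees of freedom 1.74 to 3.57). CPM uses TMM factors, except for genes overlapping a kinesin and for floors, which use the column total. Counting intervals are exact (Clopper-Pearson, 95%) and cover counting error only, because reads lacking molecular identifiers need not be separate molecules. Exonic overlap was read from GENCODE 29 (GRCh38).

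Members, gene lists and motifs were chosen with earlier results of these data known. Of each partner list, the 3 members past the threshold with the largest change and a mean of at least 5 CPM were named, plus the largest of the rarer direction. One adaptor that this rule selects is not reported here. SKAP1, on the adaptor list, is no known kinesin adaptor and had too few counts to be tested. Alternatives were DESeq2 1.42.0 (test and size factors), library size alone, no filter, each symbol by its row with most counts, limma 3.58.1 on log2(FPKM + 1) and log2(FPKM + 0.1) of symbols with a mean of at least 0.1 FPKM, a replicate block, and each library left out.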

Additional observations from a re-analysis of the deposited data

How the results depend on the processing

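All 12 mitotic kinesins were lower under each of the 14 alternatives. Other kinesins called were 11 to 13 higher and 6 to 9 lower, and the replicate block left them at 12 and 7, with 5192 symbols of the whole table higher and 5179 lower. Over the whole table, 4737 were higher and 5689 lower with library size alone, 5637 and 5446 with no filter, 5313 and 5013 with DESeq2's Wald test, and 4777 and 5689 with log2(FPKM + 1). Leaving out a library kept 12 higher and gave 6 to 8 lower, with 5142 to 5187 symbols of the whole table higher and 5114 to 5205 lower. Replicate numbers did not pair the libraries: deviations of same-numbered libraries correlated at 0.017, -0.006 and -0.012. Of 476 values for 34 kinesins, 464 kept direction and side of the threshold, 5 lost a call (KIF17 and KIFC3), 4 gained one (KIF5A) and 3 turned sign. Those 3 were KIF3C, which did not pass at 0.06, at -0.029 with library size alone, -0.030 with log2(FPKM + 0.1) and -0.027 with log2(FPKM + 1); the median over all tested symbols was -0.09 with library size alone. Adding 1 to FPKM shrinks low genes by construction: KIF24 was -1.58, KIFC1 -0.96 and KIF15 -0.23 (with 0.1 added, KIFC1 -2.81 and KIF15 -1.34). The mitotic share of kinesin FPKM, 62.5% in DMSO and 9.02% after tt-DDE, was 48.0% and 5.46% of counts, which are not divided by length, and 60.5% and 8.50% without KIF4A and KIF4B. Without single libraries it was 62.4% to 62.7% and 8.88% to 9.21%. Counting depth limits KIF15, KIFC1 and the 8 untested members.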
